A study of Mus musculus with 9 samples.

Results

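Type I interferon response genes are genes whose RNA rises when a cell senses interferon alpha or beta. The list holds 49 such genes, chosen by symbol with earlier results of these data known, so counts of its members are no independent test. A gene counts as measured where 3 or more of the 9 arrays detected a probe of that symbol (detection p under 0.05). Its brightest probe stands for it. This gave 43 measured members out of 10018 named genes measured in all. Ifit1, Xaf1 and Slfn5 have probes that did not pass the detection filter, and array values of Herc6, Ddx60 and Ifi44 are not analysed here.

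The 9 arrays are single-colour Illumina mouse bead arrays of 45281 probes, 1 per RNA sample. The samples were cells from the marrow of mice of strain C57/B6, 6 to 8 weeks old, treated with 5-FU, which depletes cycling cells. The cells were transfected with NUP98-CDX4, NUP98-CDX1 or, as control, EGFP, a green fluorescent protein, with n = 3 arrays per group. Culture was the same for all groups, in IMDM with 2% serum and the cytokines stem cell factor and IL-6. In each fusion a piece of NUP98, a nuclear pore protein, is linked to a homeobox transcription factor of the caudal type. The labels do not say whether the 3 samples of a group came from separate mice, transfections or cultures, so each p-value reflects only the spread among these samples, which may be technical. The column names carry day numbers of unstated meaning, 17 (replicates 1 and 2) or 20 (replicate 3) for NUP98-CDX4, 28 for NUP98-CDX1 and 21 for EGFP. No day is shared by 2 groups, so day and group cannot be told apart.

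Interferon alpha and beta bind the receptor chains IFNAR1 and IFNAR2, whose kinases JAK1 and TYK2 activate STAT2. STAT2 and IRF9 are subunits of ISGF3, a complex that binds the interferon-stimulated response element (ISRE) before the genes it induces. The induced proteins cut or bind viral RNA, block virus entry and release, sense nucleic acids, and switch the signal off again. In the blood system the pathway is known for antiviral defence by myeloid cells and for its effects on the cycling of blood stem cells.

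In NUP98-CDX4 cells the response genes were lower than in EGFP cells in each of 6 classes of role. Of the 43 measured members 25 fell (58.1%), against 2.95% of all 13160 features tested, with 18 not passing. None rose, against 2.42% of all features, and 0 members were higher at an unadjusted p under 0.05 (limma, Benjamini-Hochberg adjustment over all features, threshold 0.05). The median log2 fold change of the members was -1.29, against 0.03 for all features, and ran from -3.59 for Ifit3 to 0.00 for Trim25. Of the 25, 21 were at least 2-fold lower, counting Ifih1, undetected in NUP98-CDX4, at its bound (1.34-fold). The 3 NUP98-CDX4 arrays all lay below the 3 EGFP arrays for 33 members, against 9.34% of all features. In RNA from a mixed culture, fewer cells of a type and less RNA per cell cannot be told apart. Leaving out EGFP replicate 1 or EGFP replicate 2 lowered the count to 16 in each case.

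Judged by brightest probes, Mx1 alone fell in NUP98-CDX1 cells, 1 of 43 members (2.33%) against 0.441% of all features. A dimmer probe of Ifit2 was lower too (-1.2, limma adjusted p = 0.0492 over all 19472 probes). By brightest probes 0 members rose, against 0.6% of all features and with 0 higher at an unadjusted p under 0.05. The median was -0.43, against 0.02 for all features, and 38 of 43 members were below 0, against 48.1% of all features. Groups did not overlap, with NUP98-CDX1 lower, for 17 members, against 6.03% of all features. Mx1 no longer passed with any EGFP or NUP98-CDX1 replicate or NUP98-CDX4 replicate 1 left out (adjusted p up to 0.186).

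Directly compared, NUP98-CDX4 cells held less of 2 members than NUP98-CDX1 cells, Oasl1 and Mx1, against 0.114% of all features. None was higher, against 0.0304% of all features and with 0 higher at an unadjusted p under 0.05. The median was -0.94, against 0.01 for all features, and for 26 members all NUP98-CDX4 arrays lay below all NUP98-CDX1 arrays, against 5.38% of all features. Neither call held with any NUP98-CDX1 replicate, NUP98-CDX4 replicate 1 or EGFP replicate 2 left out, and that of Mx1 held without NUP98-CDX4 replicate 2 alone. The group means ran in the order NUP98-CDX4, NUP98-CDX1, EGFP from lowest to highest for 35 of 43 members. The share of all features with this order of means was not computed. For 13 members the 3 groups stood fully apart in that order, against 1.19% of all features. They were Oasl1, Oasl2, Oas1a, Ifit2, Mx1, Isg15, Zbp1, Ifi35, Trim30a, Ifitm3, Rtp4, Parp12 and Epsti1. The 2 comparisons with EGFP share its arrays, so the members' values in them are given side by side only.

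The arrays fell into 2 sets by the signals of probes detected nowhere, a brighter set of 5 (NUP98-CDX4 replicates 1 and 3, NUP98-CDX1 replicate 3, EGFP replicates 1 and 2) and a dimmer set of 4. The sets were found in the data and the labels name no such batch. With array set as a block 35 members were lower in NUP98-CDX4 than in EGFP, against 7.91% of all features, and all 25 calls were kept. Plain differences of group means, without a test, had a median of -1.41 within the brighter arrays and -1.21 within the dimmer ones. The 25 had the same sign in both. The dimmer value compares 1 NUP98-CDX4 array, replicate 2, with 1 EGFP array, replicate 3. With the block 8 members were lower in NUP98-CDX1 than in EGFP (2.77% of all features) and 15 were lower in NUP98-CDX4 than in NUP98-CDX1 (1.12%). No member was higher with the block, against 8.85%, 2.96% and 0.342% of all features in NUP98-CDX4 over EGFP, NUP98-CDX1 over EGFP and NUP98-CDX4 over NUP98-CDX1. None was higher with groups that did not overlap, against 11.7%, 9.13% and 4.53% in the same order. All arrays detected between 17257 and 19300 probes. The number of arrays limits the precision.

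**Figure D1:**
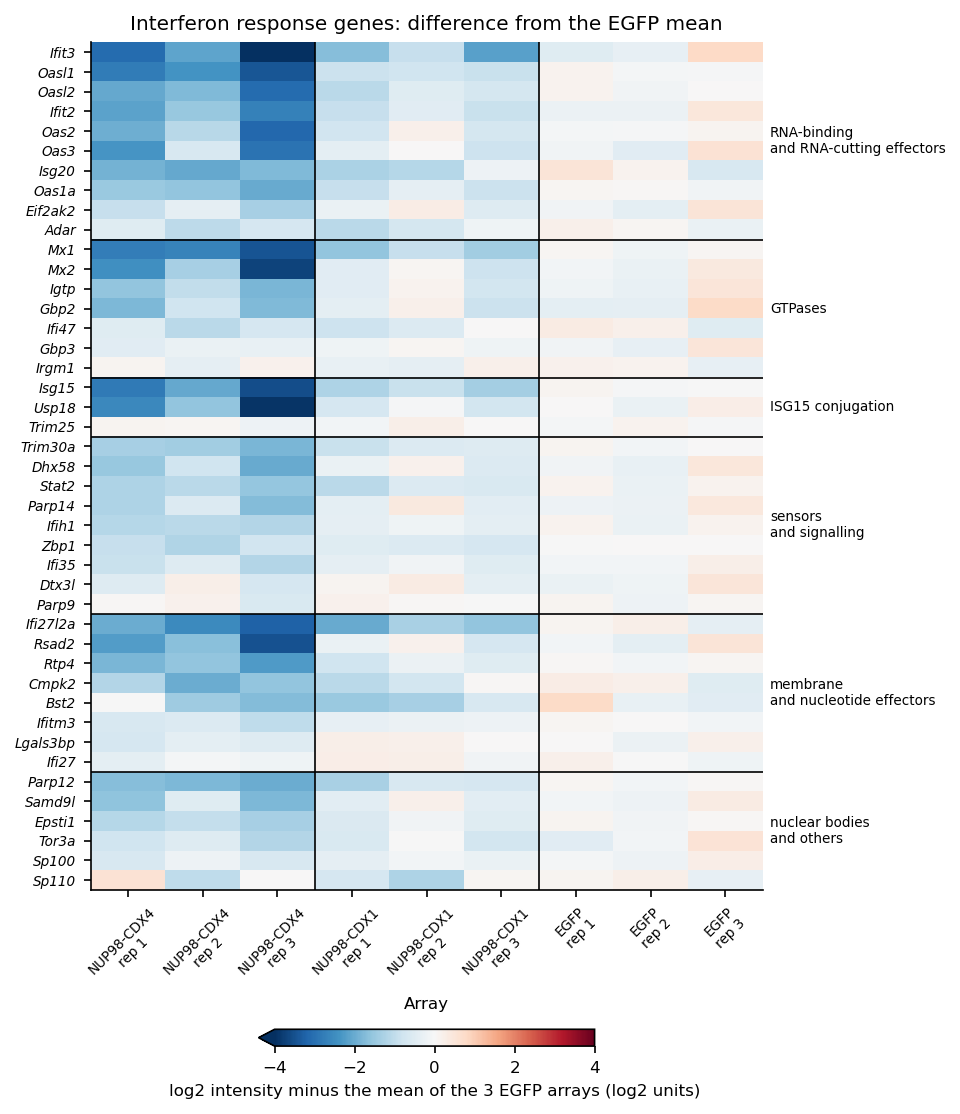
Difference of each measured member from its EGFP mean (colour, log2 units) on each of the 9 arrays (columns: NUP98-CDX4, NUP98-CDX1, EGFP), with members grouped by role and sorted by their NUP98-CDX4 value within a role. The 3 NUP98-CDX4 columns are blue for most members and pale for Trim25 and Irgm1, and the colour scale ends at -4, past which lies Ifit3 on NUP98-CDX4 replicate 3 (-5.58).

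The NUP98-CDX4 arrays differed among themselves. Relative to the EGFP mean, the median member stood at -1.24 on replicate 1, -1.07 on replicate 2 and -1.75 on replicate 3, the one labelled day 20. Replicate 3 was the lowest of the 3 for 31 of 43 members and replicate 2 the highest for 30. The medians were -0.58, -0.17 and -0.54 on the 3 NUP98-CDX1 arrays and 0.04, -0.15 and 0.09 on the 3 EGFP arrays. The median over all features lay between -0.02 and 0.04 on every array. Without replicate 3 the count of members lower in NUP98-CDX4 than in EGFP was 19. The median SD over the members was 0.41 in NUP98-CDX4, 0.36 in NUP98-CDX1 and 0.26 in EGFP, against 0.25, 0.27 and 0.24 over all features in the same groups.

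The 250 bases before the start of 6 members follow, because these are the members with the strongest calls whose promoter is in the RefSeq table used (GRCm38.p6), and an ISRE is where ISGF3 binds. Capitals mark GAAANNGAAA, a simplified ISRE of 10 bases, on either strand. Coordinates are chr5:114922990-114923239 (plus strand) for Oasl1, chr6:39118350-39118599 (minus strand) for Parp12, chr4:156200819-156201068 (minus strand) for Isg15, chr7:104465194-104465443 (minus strand) for Trim30a, chr5:120907526-120907775 (minus strand) for Oas1a and chr5:114896684-114896933 (plus strand) for Oasl2. Each is read 5′ to 3′ towards the gene.
Oasl1: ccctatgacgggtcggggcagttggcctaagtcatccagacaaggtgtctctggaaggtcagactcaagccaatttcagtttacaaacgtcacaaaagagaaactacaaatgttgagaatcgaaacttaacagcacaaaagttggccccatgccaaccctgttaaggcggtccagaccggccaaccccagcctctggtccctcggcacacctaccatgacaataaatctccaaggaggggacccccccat
Parp12: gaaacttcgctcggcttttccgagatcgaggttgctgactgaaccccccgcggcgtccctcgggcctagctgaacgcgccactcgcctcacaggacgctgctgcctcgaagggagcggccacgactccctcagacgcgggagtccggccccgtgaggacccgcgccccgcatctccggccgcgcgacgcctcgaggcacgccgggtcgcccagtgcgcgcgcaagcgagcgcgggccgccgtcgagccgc
Isg15: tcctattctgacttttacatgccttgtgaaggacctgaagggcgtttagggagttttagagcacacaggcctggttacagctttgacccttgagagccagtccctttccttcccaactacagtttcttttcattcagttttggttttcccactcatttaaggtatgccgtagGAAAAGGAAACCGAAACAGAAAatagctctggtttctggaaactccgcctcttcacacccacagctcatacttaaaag
Trim30a: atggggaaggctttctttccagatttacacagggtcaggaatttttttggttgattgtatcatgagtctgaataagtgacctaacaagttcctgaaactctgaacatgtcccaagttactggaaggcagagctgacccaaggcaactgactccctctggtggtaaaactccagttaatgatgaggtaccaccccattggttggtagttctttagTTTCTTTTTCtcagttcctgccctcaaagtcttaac
Oas1a: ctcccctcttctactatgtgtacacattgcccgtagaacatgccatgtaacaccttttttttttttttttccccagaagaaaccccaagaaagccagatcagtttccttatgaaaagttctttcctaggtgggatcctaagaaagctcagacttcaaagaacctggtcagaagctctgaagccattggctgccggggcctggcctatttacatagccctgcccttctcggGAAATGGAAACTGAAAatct
Oasl2: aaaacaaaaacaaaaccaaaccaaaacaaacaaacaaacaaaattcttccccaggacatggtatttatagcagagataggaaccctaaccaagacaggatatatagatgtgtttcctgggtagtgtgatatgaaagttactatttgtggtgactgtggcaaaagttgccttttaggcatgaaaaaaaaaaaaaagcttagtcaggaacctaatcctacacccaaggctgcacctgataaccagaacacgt
Isg15 holds 3 overlapping matches, from 78 to 57 bases before its start, Oas1a 2 overlapping matches, from 20 to 5 bases before, and Trim30a 1, on the opposite strand from 36 to 27 bases before. Oasl1, Parp12 and Oasl2 hold none in this window. Each gene's window lies before the furthest upstream of its RefSeq starts, and windows before other starts were not searched.

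A window of this kind was found for 37 of the 49 listed members, measured or not. GAAANNGAAA, or its reverse complement TTTCNNTTTC, stood in 15 of the 37 (40.5%), against 823 of 27025 windows over all genes (3.05%). Among the measured members with a window, it stood in 7 of the 17 that fell in NUP98-CDX4 over EGFP (41.2%) and in 5 of the 14 that did not pass (35.7%). A match is a description of these letters and not a measured binding site. The shorter core AANNGAAA, which every longer match on its strand also holds, stood in 24 of 37 members and in 21.6% of all windows. TTCNNNGAA, a simplified site for STAT dimers (GAS) that reads the same on both strands, stood in 6 of 37 members and in 7.14% of all windows.

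**Figure D2:**
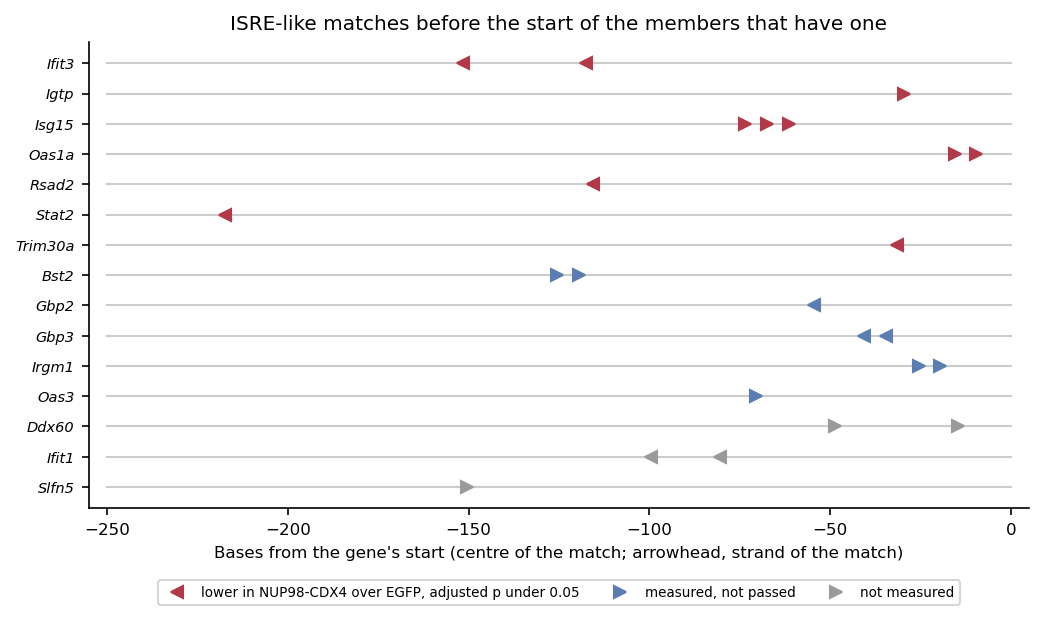
Position of each GAAANNGAAA match in the 250 bases before the start (x axis, bases from the start; arrowheads give the strand) for the 15 members that hold 1 or more. Red members fell in NUP98-CDX4 over EGFP, blue were measured and did not pass, grey were not measured; the match of Stat2 lies furthest out, from 222 to 213 bases before the start, and all others begin at most 156 bases before it.

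The members that bind or cut RNA fell in NUP98-CDX4 cells in 7 of 10 cases, against 2.95% of all features, with a median of -2.02. In NUP98-CDX1 cells 0 of 10 passed, with a median of -0.73. Oasl1, an OAS-like protein that in mice holds back the translation of Irf7 mRNA, had log2 intensities of 7.86, 8.28 and 7.23 in NUP98-CDX4 cells, 9.81, 9.86 and 9.78 in NUP98-CDX1 cells, and 10.80, 10.58 and 10.61 in EGFP cells. It fell by 2.87 ± 0.24 on the log2 scale (7.31-fold, adjusted p = 0.000319) and was also lower than in NUP98-CDX1 cells (-2.03 ± 0.24, 4.07-fold, adjusted p = 0.0234). The 3 groups did not overlap, and the SD over the NUP98-CDX1 arrays was 0.04. Oasl2, its neighbour on chromosome 5, has ubiquitin-like domains as Oasl1 has, and had log2 intensities of 10.47, 10.73 and 9.44 in NUP98-CDX4 cells, 11.42, 12.01 and 11.81 in NUP98-CDX1 cells, and 12.64, 12.36 and 12.52 in EGFP cells. It fell by 2.30 ± 0.31 on the log2 scale (4.92-fold, adjusted p = 0.00314), again with 3 groups apart. Oas1a, an oligoadenylate synthetase that senses double-stranded RNA and activates RNase L, had log2 intensities of 5.95, 5.88 and 5.42 in NUP98-CDX4 cells, 6.52, 7.10 and 6.59 in NUP98-CDX1 cells, and 7.53, 7.50 and 7.32 in EGFP cells. It fell by 1.70 ± 0.20 on the log2 scale (3.24-fold, adjusted p = 0.00171), and its probe may also read the near-identical Oas1 copies. Oas2, a larger synthetase, had log2 intensities of 9.30, 10.16 and 8.12 in NUP98-CDX4 cells, 10.48, 11.45 and 10.55 in NUP98-CDX1 cells, and 11.18, 11.22 and 11.38 in EGFP cells. It fell by 2.06 ± 0.46 on the log2 scale (4.18-fold, adjusted p = 0.032), while its NUP98-CDX1 and EGFP arrays overlapped. For Oas3, next to Oas2, the NUP98-CDX4 arrays ran from 5.51 to 7.81 and the EGFP arrays from 8.00 to 9.03 without overlap, and it did not pass (log2 fold change -1.98 ± 0.53, adjusted p = 0.0717).

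The IFIT proteins bind viral RNA and slow its translation. Ifit3 had log2 intensities of 8.55, 9.52 and 6.05 in NUP98-CDX4 cells, 9.92, 10.70 and 9.45 in NUP98-CDX1 cells, and 11.16, 11.30 and 12.42 in EGFP cells. It fell by 3.59 ± 0.77 on the log2 scale (12-fold, adjusted p = 0.029), the largest change among the members, and NUP98-CDX4 replicate 3 lay far below the other two. Its probe may also read the near-identical Ifit3b. Ifit2, its neighbour on chromosome 19, had log2 intensities of 8.32, 8.95 and 7.76 in NUP98-CDX4 cells, 9.55, 10.02 and 9.58 in NUP98-CDX1 cells, and 10.24, 10.23 and 10.93 in EGFP cells. It fell by 2.12 ± 0.31 on the log2 scale (4.36-fold, adjusted p = 0.00507), and the 3 groups did not overlap. Isg20, an exonuclease that degrades RNA, had log2 intensities of 6.62, 6.47 and 6.75 in NUP98-CDX4 cells, 7.24, 7.36 and 8.30 in NUP98-CDX1 cells, and 9.01, 8.65 and 7.88 in EGFP cells. It fell by 1.90 ± 0.34 on the log2 scale (3.73-fold, adjusted p = 0.0121), and in this gene EGFP replicate 3 lay below the other EGFP arrays. Eif2ak2, the kinase PKR that stops translation, and Adar, an enzyme that edits RNA, did not pass (-0.87 ± 0.32, adjusted p = 0.202, and -0.73 ± 0.25, adjusted p = 0.165).

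Of the 7 GTPases 3 fell in NUP98-CDX4, against 2.95% of all features, with a median of -1.46. In NUP98-CDX1 the count was 1, against 0.441% of all features, with a median of -0.36. Mx1, a dynamin-like GTPase that blocks virus replication and is defective as a protein in most laboratory mouse strains, had log2 intensities of 5.51, 5.62 and 4.84 in NUP98-CDX4 cells, 6.70, 7.37 and 6.90 in NUP98-CDX1 cells, and 8.36, 8.12 and 8.38 in EGFP cells. It fell by 2.97 ± 0.24 on the log2 scale (7.81-fold, adjusted p = 0.000319) in NUP98-CDX4 and by 1.30 ± 0.24 on the log2 scale (2.45-fold, adjusted p = 0.0468) in NUP98-CDX1. It was also lower in NUP98-CDX4 than in NUP98-CDX1 (-1.67 ± 0.24, 3.18-fold, adjusted p = 0.0486), and the 3 groups did not overlap. Mx1 was detected on 2 of 3 NUP98-CDX4 arrays, and with the undetected array raised to its lowest detected signal the fold over EGFP was 6.89. Mx2, its paralog, had log2 intensities of 6.32, 7.44 and 5.07 in NUP98-CDX4 cells, 8.33, 8.85 and 7.94 in NUP98-CDX1 cells, and 8.65, 8.50 and 9.16 in EGFP cells. It fell by 2.49 ± 0.51 on the log2 scale (5.63-fold, adjusted p = 0.0229), was likewise detected on 2 of 3 NUP98-CDX4 arrays (5.25-fold with the third raised), and overlapped between NUP98-CDX1 and EGFP. Igtp, an immunity-related GTPase that acts on the vacuoles of intracellular microbes, had log2 intensities of 9.26, 9.86 and 9.0 in NUP98-CDX4 cells, 10.40, 10.97 and 10.09 in NUP98-CDX1 cells, and 10.66, 10.55 and 11.32 in EGFP cells. It fell by 1.47 ± 0.31 on the log2 scale (2.76-fold, adjusted p = 0.0259).

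The other GTPases did not pass in any comparison. Gbp2, a guanylate-binding protein, was at -1.46 ± 0.40 in NUP98-CDX4 over EGFP (adjusted p = 0.0776), with groups that did not overlap. Ifi47 was at -0.75 ± 0.29, Gbp3 at -0.34 ± 0.21 and Irgm1 at -0.03 ± 0.22. The brightest Irgm1 probe had 13.83, 13.36 and 13.89 in NUP98-CDX4 cells and 13.91, 13.88 and 13.40 in EGFP cells. A dimmer probe of Irgm1 was lower in NUP98-CDX4 (-1.35, adjusted p = 0.00231 over all 19472 probes), so the probes of this gene disagree. Single dimmer probes of Gbp2 (-1.16), Adar (-0.92) and Parp14 (-1.29) passed too (adjusted p = 0.0307, 0.0298 and 0.00566 in the order given).

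ISG15 is a ubiquitin-like protein that is attached to other proteins after interferon. Isg15 had log2 intensities of 9.16, 9.93 and 8.45 in NUP98-CDX4 cells, 10.74, 11.11 and 10.62 in NUP98-CDX1 cells, and 12.09, 11.93 and 11.96 in EGFP cells. It fell by 2.81 ± 0.32 on the log2 scale (7.04-fold, adjusted p = 0.00133), with 3 groups apart and a spread of 0.08 (SD) between the EGFP arrays. Usp18, which removes ISG15 and also blocks signalling at IFNAR2, had log2 intensities of 9.62, 10.63 and 8.29 in NUP98-CDX4 cells, 11.53, 12.16 and 11.48 in NUP98-CDX1 cells, and 12.21, 11.94 and 12.46 in EGFP cells. It fell by 2.69 ± 0.49 on the log2 scale (6.46-fold, adjusted p = 0.0141), while NUP98-CDX1 and EGFP overlapped (log2 fold change -0.48 ± 0.49, adjusted p = 0.752). Trim25, a ubiquitin ligase acting on RIG-I, had 11.08, 11.04 and 10.75 in NUP98-CDX4 cells, 10.85, 11.20 and 10.99 in NUP98-CDX1 cells, and 10.88, 11.09 and 10.92 in EGFP cells. Its groups overlapped throughout (NUP98-CDX4 over EGFP, 0.00 ± 0.16, adjusted p = 0.998).

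**Figure D3:**
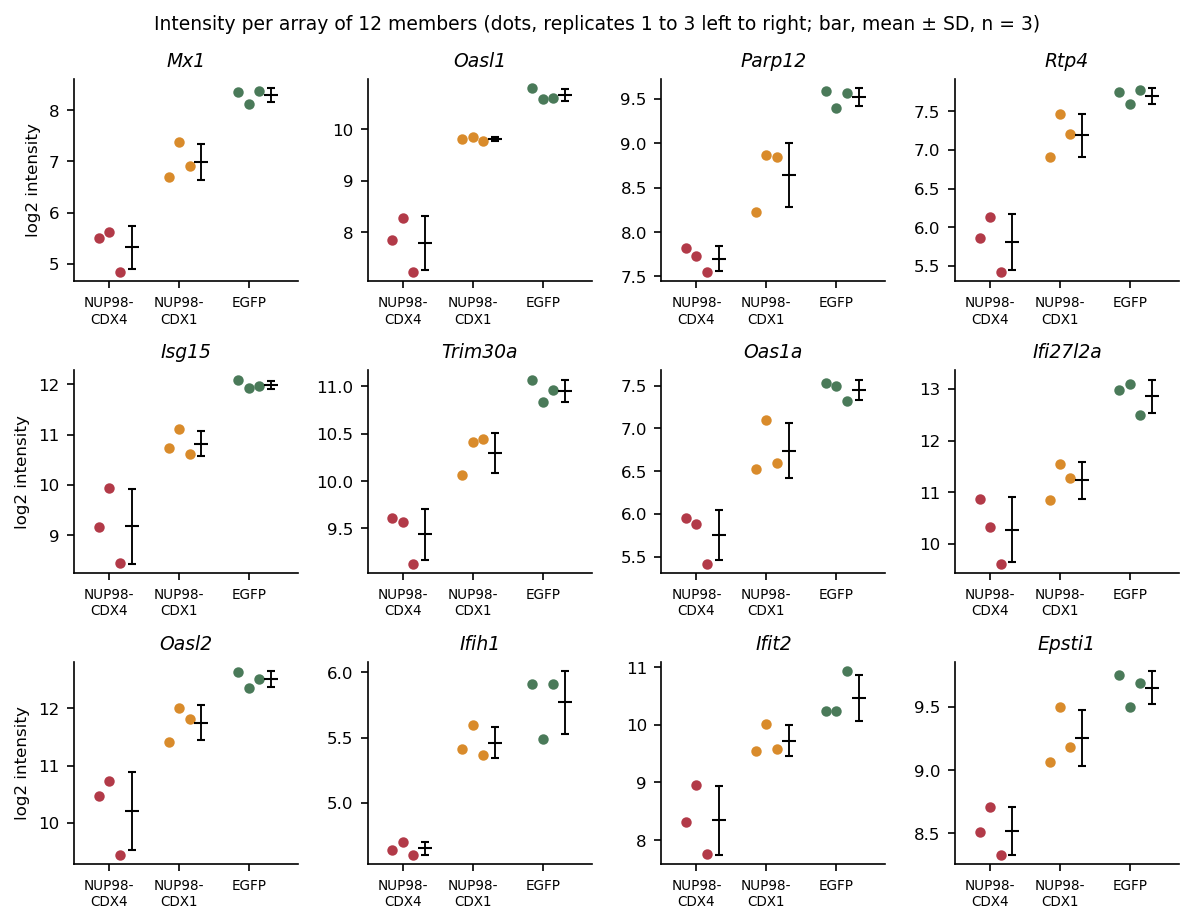
Log2 intensity on each array (y axis; its range differs between panels) of the 12 members with the smallest adjusted p, by group (x axis: NUP98-CDX4, NUP98-CDX1, EGFP). Dots are arrays and bars the mean ± SD (n = 3); the NUP98-CDX4 dots lie below the EGFP dots in all 12 panels, and no NUP98-CDX4 array detected Ifih1.

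Of the 9 measured sensors and signalling members 6 fell in NUP98-CDX4, against 2.95% of all features. The median of the 9 was -1.12 (-0.96 with Ifih1 at its bound). In NUP98-CDX1 0 fell, with a median of -0.31. Dhx58 (LGP2), a helicase that tunes the RNA sensors, had log2 intensities of 9.52, 10.25 and 9.04 in NUP98-CDX4 cells, 10.77, 11.21 and 10.51 in NUP98-CDX1 cells, and 10.92, 10.75 and 11.49 in EGFP cells. It fell by 1.45 ± 0.33 on the log2 scale (2.73-fold, adjusted p = 0.0354). Ifih1 (MDA5), a sensor of long double-stranded RNA, had log2 intensities of 4.64, 4.70 and 4.60 in NUP98-CDX4 cells, 5.41, 5.60 and 5.37 in NUP98-CDX1 cells, and 5.91, 5.49 and 5.91 in EGFP cells. It was detected on 0 of 3 NUP98-CDX4 arrays, 2 of 3 NUP98-CDX1 arrays and 3 of 3 EGFP arrays, so its level in NUP98-CDX4 has only a bound, at least 1.34-fold lower than in EGFP (adjusted p = 0.00379). Zbp1, a sensor of Z-form nucleic acids, had log2 intensities of 6.49, 6.23 and 6.65 in NUP98-CDX4 cells, 6.93, 6.86 and 6.76 in NUP98-CDX1 cells, and 7.40, 7.42 and 7.42 in EGFP cells. It fell by 0.96 ± 0.15 on the log2 scale (1.94-fold, adjusted p = 0.00601), with EGFP arrays within 0.01 (SD) of each other. Dimmer probes of Zbp1 were at -2.29 and -0.81 (limma adjusted p = 0.00211 and 0.0905 over all 19472 probes), so its probes differ in size of change.

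Stat2, an ISGF3 subunit, had log2 intensities of 8.05, 8.22 and 7.74 in NUP98-CDX4 cells, 8.21, 8.74 and 8.67 in NUP98-CDX1 cells, and 9.43, 9.02 and 9.42 in EGFP cells. It fell by 1.28 ± 0.21 on the log2 scale (2.44-fold, adjusted p = 0.00726), and the NUP98-CDX4 and NUP98-CDX1 arrays overlapped. Trim30a, a ubiquitin ligase that limits NF-kB signalling, had log2 intensities of 9.61, 9.57 and 9.13 in NUP98-CDX4 cells, 10.06, 10.41 and 10.44 in NUP98-CDX1 cells, and 11.07, 10.83 and 10.96 in EGFP cells. It fell by 1.52 ± 0.18 on the log2 scale (2.86-fold, adjusted p = 0.00158), with 3 groups apart, and its probe may also read other Trim30 copies. Ifi35, which binds the partner protein NMI, fell by 0.86 ± 0.20 (adjusted p = 0.0393). Parp14, Dtx3l and Parp9 are neighbours on chromosome 16 that act in ADP-ribosylation, DTX3L and PARP9 as a complex. None of them passed, with -1.18 ± 0.34 for Parp14, -0.32 ± 0.31 for Dtx3l and -0.13 ± 0.21 for Parp9 in NUP98-CDX4 over EGFP.

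Membrane and nucleotide effectors fell in 5 of 8 cases in NUP98-CDX4, against 2.95% of all features, with a median of -1.31. In NUP98-CDX1 0 of 8 fell, with a median of -0.39. Rsad2 (viperin), which makes a chain-terminating nucleotide, had log2 intensities of 9.49, 10.08 and 8.26 in NUP98-CDX4 cells, 11.46, 11.90 and 11.06 in NUP98-CDX1 cells, and 11.62, 11.35 and 12.26 in EGFP cells. It fell by 2.47 ± 0.44 on the log2 scale (5.52-fold, adjusted p = 0.0129). Cmpk2, the nucleotide kinase encoded beside it on chromosome 12, had log2 intensities of 9.39, 8.57 and 8.96 in NUP98-CDX4 cells, 9.47, 9.83 and 10.61 in NUP98-CDX1 cells, and 10.85, 10.75 and 10.05 in EGFP cells. It fell by 1.57 ± 0.34 on the log2 scale (2.97-fold, adjusted p = 0.0287). In both genes the NUP98-CDX4 arrays lay below all others, and NUP98-CDX1 overlapped EGFP. Ifi27l2a, a small hydrophobic protein, had log2 intensities of 10.87, 10.32 and 9.62 in NUP98-CDX4 cells, 10.84, 11.55 and 11.28 in NUP98-CDX1 cells, and 12.98, 13.10 and 12.50 in EGFP cells. It fell by 2.59 ± 0.32 on the log2 scale (6.02-fold, adjusted p = 0.0021), and in NUP98-CDX1 its log2 fold change was -1.63 ± 0.32 (adjusted p = 0.054) with no overlap with EGFP. Its neighbour Ifi27 on the same chromosome was at -0.22 ± 0.17 in NUP98-CDX4 (adjusted p = 0.696), with groups that overlapped.

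Rtp4, a chaperone of membrane receptors, had log2 intensities of 5.86, 6.13 and 5.42 in NUP98-CDX4 cells, 6.91, 7.46 and 7.21 in NUP98-CDX1 cells, and 7.75, 7.59 and 7.77 in EGFP cells. It fell by 1.90 ± 0.21 on the log2 scale (3.73-fold, adjusted p = 0.00128), with 3 groups apart. Ifitm3, which blocks the fusion of viruses in endosomes, had log2 intensities of 14.63, 14.72 and 14.27 in NUP98-CDX4 cells, 14.94, 15.05 and 15.09 in NUP98-CDX1 cells, and 15.36, 15.28 and 15.18 in EGFP cells. It fell by 0.73 ± 0.16 on the log2 scale (1.66-fold, adjusted p = 0.0265), the smallest change among the 24 that fell with a measured fold, and its groups also stood apart. Bst2 (tetherin), which holds budding viruses at the cell surface, and the secreted Lgals3bp did not pass (-1.06 ± 0.47 and -0.52 ± 0.16). Bst2 was the member whose NUP98-CDX1 arrays lay below EGFP without overlap while its NUP98-CDX4 arrays did not, running from 9.03 to 10.74 against 10.31 to 11.52 in EGFP.

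Among the nuclear and other members, 2 of 6 fell in NUP98-CDX4, against 2.95% of all features, and 0 in NUP98-CDX1. Parp12, an ADP-ribosyltransferase with zinc fingers that bind RNA, had log2 intensities of 7.82, 7.73 and 7.55 in NUP98-CDX4 cells, 8.23, 8.87 and 8.84 in NUP98-CDX1 cells, and 9.59, 9.40 and 9.56 in EGFP cells. It fell by 1.82 ± 0.19 on the log2 scale (3.52-fold, adjusted p = 0.00108), the third smallest adjusted p among the members, with 3 groups apart. Epsti1, a gene named from epithelial and stromal cell contact, had log2 intensities of 8.51, 8.71 and 8.33 in NUP98-CDX4 cells, 9.06, 9.50 and 9.18 in NUP98-CDX1 cells, and 9.75, 9.50 and 9.69 in EGFP cells. It fell by 1.13 ± 0.17 on the log2 scale (2.19-fold, adjusted p = 0.00545), with groups apart as well, although the highest NUP98-CDX1 array and the lowest EGFP array are equal once rounded. Samd9l (-1.29 ± 0.34, adjusted p = 0.0679), Tor3a, a torsin ATPase of the endoplasmic reticulum (-0.83 ± 0.29), and the nuclear body proteins Sp100 (-0.50 ± 0.18) and Sp110 (-0.13 ± 0.43) did not pass.

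**Figure D4:**
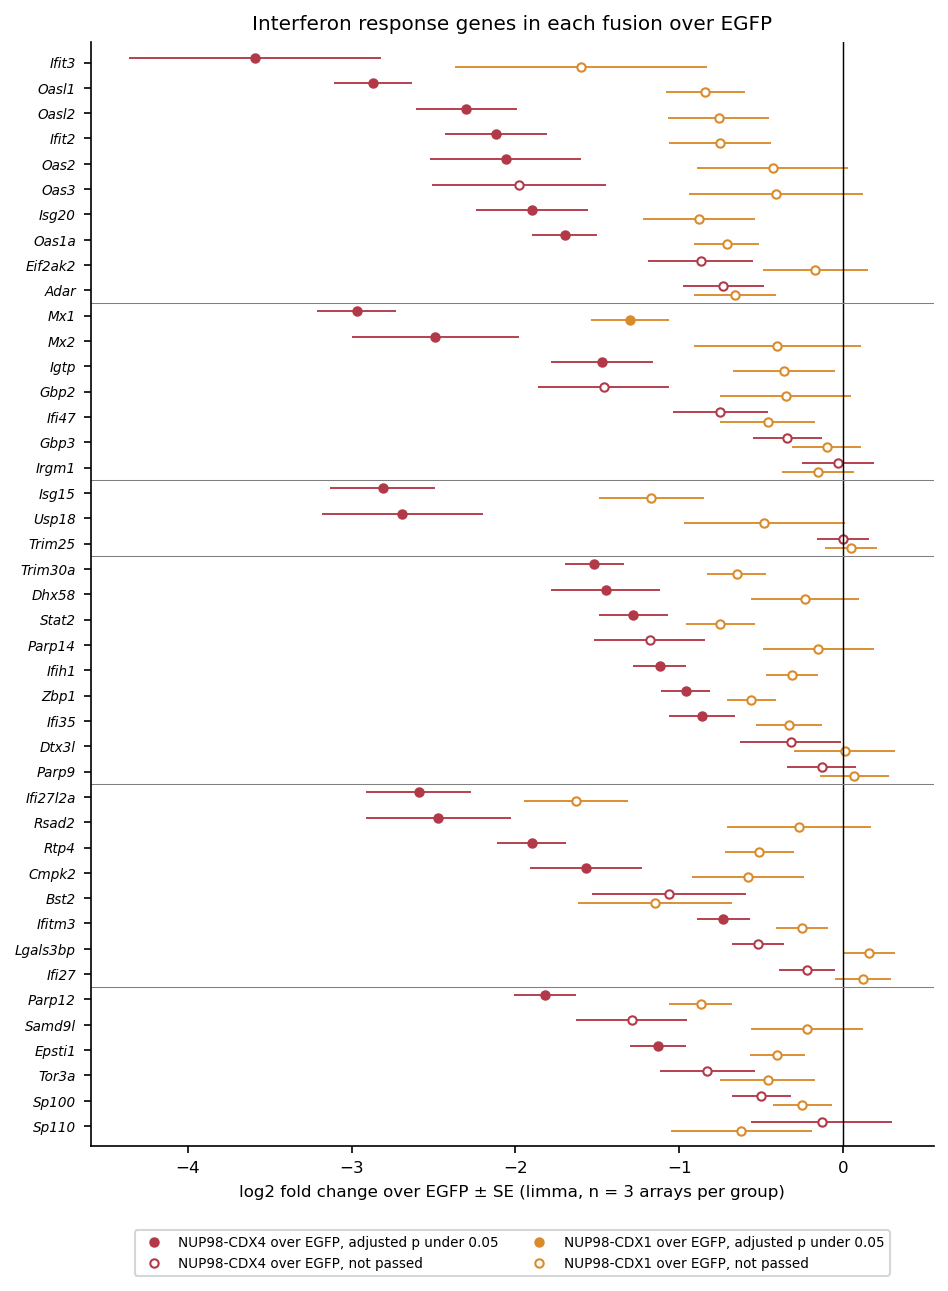
Log2 fold change over EGFP ± SE (x axis) of each measured member in NUP98-CDX4 (red) and NUP98-CDX1 (orange), with filled points for an adjusted p under 0.05. All 43 red points lie at or below 0, 25 of them filled, and Mx1 is the 1 filled orange point.

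The members that passed with array set as a block and not without it were Samd9l, Oas3, Gbp2, Parp14, Lgals3bp, Adar, Tor3a, Sp100, Eif2ak2 and Ifi47. Bst2, Gbp3, Ifi27, Dtx3l, Parp9, Sp110, Irgm1 and Trim25 passed under neither. For NUP98-CDX1 the block added Isg15, Ifi27l2a, Parp12, Ifit2, Zbp1, Oasl1 and Gbp2 to Mx1. Of the 25 members that fell, 8 have other measured probes, 13 in all, of which 11 were also lower with an adjusted p under 0.05 over all probes, 2 were lower without passing and 0 went the other way.

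Of the genes that start or carry the interferon signal, a few fell in NUP98-CDX4 over EGFP, where 2.95% of all features did. Irf7, the regulator that amplifies interferon production, had log2 intensities of 6.62, 7.80 and 5.56 in NUP98-CDX4 cells, 8.65, 9.38 and 8.30 in NUP98-CDX1 cells, and 9.57, 9.29 and 10.10 in EGFP cells. It fell by 3.00 ± 0.51 on the log2 scale (7.98-fold, adjusted p = 0.0102), and NUP98-CDX4 did not overlap EGFP. Irf5, which acts downstream of endosomal receptors in myeloid cells, had log2 intensities of 7.44, 7.92 and 7.22 in NUP98-CDX4 cells, 8.17, 8.44 and 7.98 in NUP98-CDX1 cells, and 8.76, 8.50 and 9.53 in EGFP cells. It fell by 1.40 ± 0.29 on the log2 scale (2.64-fold, adjusted p = 0.0225), and the other 5 of 7 regulatory factors measured did not pass. Irf9, the DNA-binding subunit of ISGF3, was named after its values were seen and was at -0.47 ± 0.19 (adjusted p = 0.249). In NUP98-CDX1 none of the 7 passed, with 2 lower at an unadjusted p under 0.05.

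The ligands were mostly below detection. Of 17 interferon genes with a probe, 12 were detected on no array, Ifnb1 among them. The 3 that were measured were Ifna1, Ifna6 and Ifnab, and 0 of 3 passed in any comparison (limma, 0 at an unadjusted p under 0.05). Probes of the interferon alpha genes may read several near-identical copies. Of the receptors, Ifngr1, a chain of the interferon gamma receptor, fell by 0.75 ± 0.15 on the log2 scale (1.68-fold, adjusted p = 0.0222). Ifnar1 was detected on no array, and Ifnar2, also named after its values were seen, was at -0.16 ± 0.42 (adjusted p = 0.964). Of the receptor kinases and STATs measured, 0 of 5 passed in NUP98-CDX4 or NUP98-CDX1 over EGFP, those with the smallest p in NUP98-CDX4 being Stat4, Jak1, Jak2 and Stat3, and Stat4 was higher in NUP98-CDX1 at an unadjusted p under 0.05.

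Of 14 measured sensors and adaptors outside the list, 4 fell in NUP98-CDX4 over EGFP, against 2.95% of all features, and 10 did not pass. They were Ddx58 (RIG-I), a sensor of viral RNA (-1.51 ± 0.19, adjusted p = 0.00218), Tlr7, an endosomal receptor of single-stranded RNA (-1.96 ± 0.48, adjusted p = 0.0473), Ikbke, a kinase that activates interferon regulatory factors (-0.87 ± 0.19, adjusted p = 0.0335), and Ifi204, a DNA sensor (-2.32 ± 0.18, adjusted p = 0.000259). Ifi204 also fell in NUP98-CDX1 (-1.98 ± 0.18, adjusted p = 0.00124). Of 10 negative regulators, Usp18, a member already described, passed alone.

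**Figure D5:**
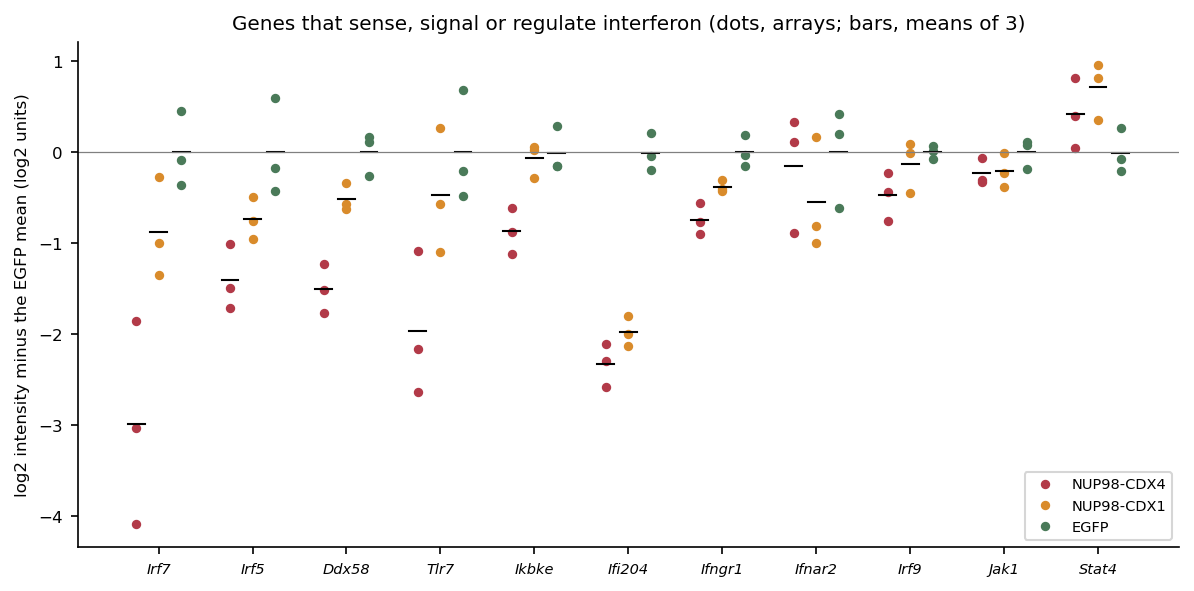
Log2 intensity minus the EGFP mean (y axis, log2 units) of 11 genes that sense, transmit or regulate the interferon signal (x axis), with 1 dot per array and a bar at the mean of 3, for NUP98-CDX4 (red), NUP98-CDX1 (orange) and EGFP (green). Irf7 is lowest in NUP98-CDX4, from 5.56 to 7.80 before subtraction, while Ifnar2 and Jak1 overlap between groups.

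Of a list of 68 other interferon-induced genes 48 were measured. In NUP98-CDX4 over EGFP 19 were lower, against 2.95% of all features, and 29 did not pass. The median of the 48 was -0.75, against 0.03 for all features. The lowest was Gm4951 (-3.45 ± 0.55, adjusted p = 0.00701), followed by Ifi205 (-3.10 ± 0.55, adjusted p = 0.0125), Ifit1bl1, of the IFIT family (-2.87 ± 0.40, adjusted p = 0.00379), Phf11a (-2.84 ± 0.43, adjusted p = 0.00538), Slfn1, a schlafen protein (-2.79 ± 0.60, adjusted p = 0.0291), and Phf11d (-2.21 ± 0.25, adjusted p = 0.00133). The synthetase Oas1g (-1.70 ± 0.28, adjusted p = 0.0089), its relative Oas1b, Slfn2, Ly6c1 and Znfx1 ran from -2.05 for Slfn2 to -1.39 for Oas1b. The GTPases Gbp7, Irgm2 and Tgtp1, the RNA helicase Mov10, the dNTP-cleaving enzyme Samhd1, the ubiquitin ligase Trim21, Helz2 and Mitd1 ran from -1.17 for Irgm2 to -0.77 for Mitd1. In NUP98-CDX1 over EGFP 1 of 48, Phf11d, passed (-1.45 ± 0.25, adjusted p = 0.0322), against 0.441% of all features lower. None of the 48 passed between the fusions, with 18 lower in NUP98-CDX4 at an unadjusted p under 0.05.

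Most markers of mature myeloid cells fell in NUP98-CDX4 along with the members, and some fell in NUP98-CDX1, where 1 of 43 members did. Over all features 2.95% were lower than EGFP in NUP98-CDX4 and 0.441% in NUP98-CDX1 at the same threshold. Of 14 monocyte and macrophage markers 8 fell in NUP98-CDX4 over EGFP and 3 in NUP98-CDX1 over EGFP, where Cd14 rose (0.86 ± 0.15, adjusted p = 0.0314). Their summed normalized intensity ran from 9460 to 21300 in NUP98-CDX4, 23200 to 35800 in NUP98-CDX1 and 34700 to 43800 in EGFP. Adgre1, which defines macrophages, fell by 2.06 ± 0.22 on the log2 scale (4.18-fold, adjusted p = 0.00104) in NUP98-CDX4 and also fell in NUP98-CDX1 (-1.30 ± 0.22, adjusted p = 0.0281). In NUP98-CDX4 Cd14 (0.10 ± 0.15, adjusted p = 0.903) and Cx3cr1 (0.52 ± 0.40, adjusted p = 0.683) overlapped EGFP. C1qa, counted among the 8, was detected on 3 EGFP arrays and on none of the others. It passed the detection filter through EGFP arrays alone, so the filter itself favoured a lower value in the fusions. It has only a bound, at least 1.34-fold lower in NUP98-CDX4. Cd163 was detected nowhere.

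Of 12 late neutrophil markers 11 fell in NUP98-CDX4 and 6 in NUP98-CDX1. The sums of the 12 were 6300 to 15000 in NUP98-CDX4, 36000 to 42800 in NUP98-CDX1 and 72000 to 80500 in EGFP. Cxcr2 went the other way in NUP98-CDX4, above EGFP without overlap, and did not pass (0.80 ± 0.28, adjusted p = 0.165). Mmp9, counted among the 11 and the 6, passed the detection filter through EGFP arrays alone, so both fusions have only a bound. It was at least 2.39-fold lower in NUP98-CDX4 and 2.48-fold in NUP98-CDX1. Itgb2l has only a bound in NUP98-CDX4, at least 5.65-fold lower. Of 10 mast cell markers 8 fell in NUP98-CDX4 and 4 in NUP98-CDX1. Their sums were 10300 to 12600 in NUP98-CDX4, 19400 to 26600 in NUP98-CDX1 and 16800 to 23800 in EGFP, so that NUP98-CDX1 and EGFP overlapped. The mast cell proteases Cma1, Cma2, Mcpt4 and Tpsb2 were detected on no NUP98-CDX4 array and fell in NUP98-CDX1. In NUP98-CDX4 Kit (0.05 ± 0.21) and Gata2 (0.26 ± 0.19) did not pass and overlapped EGFP. In NUP98-CDX1 6 markers did not pass, Fcer1a (-0.65), Ms4a2 (-0.12), Cpa3 (-0.11), Gata2 (0.32), Kit (0.36) and Hdc (0.57). Tpsb2, counted among the 8 and the 4, passed the detection filter through EGFP arrays alone, so its level in NUP98-CDX1 has only a bound too. It was at least 8.11-fold lower than EGFP in NUP98-CDX4 and 8.42-fold in NUP98-CDX1.

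Markers of plasmacytoid dendritic cells, the main producers of type I interferon, gave 0 of 4 lower in NUP98-CDX4 over EGFP, with 1 lower at an unadjusted p under 0.05, and 1 higher, Tcf4 (0.99 ± 0.18, adjusted p = 0.0147). The sums were 4180 to 5460 in NUP98-CDX4, 4140 to 4570 in NUP98-CDX1 and 2080 to 3080 in EGFP, and Tcf4 made up 91.4% to 96.9% of them. The other measured markers did not pass, with Siglech (0.35 ± 0.21, adjusted p = 0.519) and Cox6a2 (-0.29 ± 0.51, adjusted p = 0.934) overlapping EGFP and Spib below it (-0.46 ± 0.20, adjusted p = 0.296), and Ccr9 and Klk1 were detected on no array. None of the 4 passed in NUP98-CDX1 over EGFP, with 1 higher at an unadjusted p under 0.05.

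Of 6 stem and progenitor markers Hoxa9 (2.90 ± 0.34) and Meis1 (1.78 ± 0.20) rose in NUP98-CDX4, and Hoxa9 in NUP98-CDX1. The sums of the 6 were 5510 to 6080 in NUP98-CDX4, 3110 to 4840 in NUP98-CDX1 and 2080 to 2530 in EGFP. Such a sum follows its brightest genes, and the part of Hoxa9 and Meis1 in it was not computed. Cd34, Mecom, Procr and Cd48 did not pass and overlapped EGFP with both fusions. They ran from 0.22 to 0.39 in NUP98-CDX4 over EGFP. Hlf, Slamf1 and Mycn were detected on no array. Of 4 T, B and NK cell markers Nkg7 rose with both fusions (1.35 ± 0.15 in NUP98-CDX4). The sums of the 4 were 5970 to 7540 in NUP98-CDX4, 5420 to 6360 in NUP98-CDX1 and 2990 to 3500 in EGFP. The part of Nkg7 in these sums was not computed. Cd79b, Ebf1 and Prf1 did not pass with either fusion. In NUP98-CDX4 over EGFP they were at 0.13 ± 0.23, 0.15 ± 0.21 and 0.29 ± 0.16 in that order. Cd3e, Cd3g, Pax5 and Ncr1 were detected nowhere. The part of these cell types in the lower level of the interferon response genes was not tested.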

How the data were processed

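The intensity values were exported by the authors from GenomeStudio without normalization, per the labels and file headers (version not given in the sources used here). Detection p-values were taken as the authors deposited them. Their processed intensities, of unstated normalization, served as an alternative (column medians 84.28 to 85.81). No column lacked a sample.

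The neqc function of limma 3.58.1 (R 4.3.3) corrected the background, normalized by quantiles and gave log2 values, with an offset of 16, which understates the fold change of dim probes, and with negative controls inferred from detection. The filter kept 19472 probes, those that 3 or more of 9 arrays detected at p under 0.05. Symbols came from the platform annotation, where 34885 probes have 1 symbol, 18 several and 10378 none. Taking the brightest probe of a gene left 13160 features, 10018 named genes and 3142 unnamed probes. Levels of different probes are not compared. A group with no detected array gives only a bound, with its arrays raised to their lowest detected signal.

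All 9 arrays entered one linear model in limma, a mean for each group with empirical Bayes variances. The adjustment of Benjamini and Hochberg ran over all features, at a threshold of 0.05. Alternatives were other normalizations, offsets, filters and probe rules, blocks on array set and replicate number, and leaving out each array. The pipeline was tested on simulated data. Summed marker levels are sums of normalized linear intensities over a list's measured genes.

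The members, pathway lists, marker lists and motifs were chosen with earlier results of these data known. By rule, per-array values are given for the 24 members with the smallest adjusted p, pathway genes may be named where they passed or else up to 4 with the smallest p, with exceptions stated beside them, and promoters are printed for the 6 members called in most comparisons, then by adjusted p, among those with a RefSeq promoter. Figures were drawn with version 3.10.9 of matplotlib.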

Additional observations from a re-analysis of the deposited data

Results flagged for a closer look

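Oasl1 and Mx1 are the members whose difference between the fusions passed its own test. Oasl1 was lower in NUP98-CDX4 than in NUP98-CDX1 (log2 fold change -2.03, limma adjusted p = 0.0234), lower on 3 of 3 arrays, with -2.24 within the brighter and -1.55 within the dimmer array set. Mx1 was lower too (log2 fold change -1.67, adjusted p = 0.0486), again on 3 of 3 arrays, with -1.73 and -1.42 within the same sets. In each set a fusion had only a single array, so the within-set values carry no test. Oasl1 did not pass in 8 of 18 tested settings (limma adjusted p up to 0.125) and Mx1 in 14 of 18 (up to 0.197).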

How the results depend on the processing

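No interferon response gene changed sign of a call and none was higher under any alternative. Medians over 20 settings ran from -1.49 to -1.07 for NUP98-CDX4 over EGFP, -0.6 to -0.32 for NUP98-CDX1 over EGFP and -1.1 to -0.66 between the fusions. Of the 25 members that fell in NUP98-CDX4, 14 kept their call in every tested setting, as did Ifih1 except that it was not tested with detection p under 0.01. Their count was 35 under the block on array set and 16 to 28 with an array left out. The count for NUP98-CDX1 over EGFP, 1 as reported, was 3 with quantile normalization alone, with the authors' processed intensities and with 2 groups fitted alone, 2 with an offset of 50 or detection p under 0.01, 0 without a detection filter, 8 under the set block and 0 to 2 with an array left out. Between the fusions the 2 became 1 with quantile normalization alone, the authors' intensities or the mean of probes, 3 with an offset of 50, 0 without a filter or with 2 groups fitted alone, 15 under the set block and 0 to 6 with an array left out. Features called in all, 137, 706 and 19 in the order NUP98-CDX1 over EGFP, NUP98-CDX4 over EGFP and between the fusions, became 754, 2206 and 193 with the set block and 24 to 148, 320 to 737 and 0 to 33 with an array left out. Without a filter they were 91 in NUP98-CDX1 and 8 between the fusions, where fitting 2 groups alone gave 3. Same-numbered replicates deviated together in some pairs only (correlations -0.79 to 0.67, below 0 for 6 of 9), so the numbers were not taken to pair the samples. The replicate block gave 33, 430 and 1 features, 19 members in NUP98-CDX4, 0 in NUP98-CDX1 and 0 between the fusions. The causes were not tested. Signals near background and 3 arrays a group limit the precision.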
